A study of Mus musculus with 6 samples.

Results

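The 10 genes described here are osteoblast and fibroblast genes other than collagens: Ibsp, Sp7, Runx2, Alpl, Spp1, Sparc, Postn, Dcn, Lum and Ogn. They were chosen by name from a table of 26852 genes, with their means in Lmx1b cKO and control midbrain already known, so the difference between the genotypes is given for them as a description, with no test. All 10 had a row in the table, and the reads of all 10 could be recovered library by library.

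Bone forms when mesenchymal cells become osteoblasts. Runx2 is the transcription factor that starts this step and Sp7 (osterix) acts after it, and the cells then secrete a collagen matrix with acidic proteins that bind mineral. Fibroblasts of dermis, periosteum, tendon and the coverings of the brain lay down a related matrix, in which small leucine-rich proteoglycans sit on the collagen fibrils. Neither cell type belongs to the neuroepithelium of the midbrain, although the skull and its mesenchyme lie directly over it, and Sparc and Spp1 are also made by cells inside the brain.

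RNA was taken from midbrains dissected at E14.5 from mouse embryos on a C57Bl/6 background. The cKO embryos were Lmx1b fl/fl;Pitx3-Cre and their control littermates Lmx1b wt/wt;Pitx3-Cre, so both genotypes carried the Cre, which had been inserted in the Pitx3 gene and removes Lmx1b only from cells that express Pitx3, the dopamine neurons of the midbrain. Each genotype had 3 libraries, each from 2 pooled embryos, and 4 litters were used; the labels do not say which litter gave which library. The table of the authors gives the mean of each genotype, in read counts divided by a size factor per library (normalized counts). Since reads come in whole numbers, the reads of each library could be worked back from the printed means, with a single solution for 26248 genes. The recovered libraries have a genotype but no sample number, so within each genotype they are named replicate a, b or c, from the largest size factor to the smallest.

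The recovered reads per library ranged from 19711032 to 23954501 on these genes, and 16573 of them had a mean normalized count of at least 10. Lmx1b itself (ENSMUSG00000038765) had 1371 ± 102 normalized counts in cKO and 1398 ± 66.6 in control (SD, n = 3 each). The ranges overlapped, so the count of Lmx1b does not check the genotype labels. In the paper, in situ hybridization showed a loss of Lmx1b in the area of the dopamine neurons. Its qPCR on dissected E14.5 midbrains found less Lmx1b mRNA after the same deletion, in embryos homozygous for the Cre. Why the count did not differ here was not tested. Th, Pitx3, En1, Lmx1a, Foxa2 and Otx2, genes of the midbrain and its dopamine neurons, were present in every library, at 111 normalized counts or more. cKO replicate c stood apart in the genes described here and cKO replicate a in keratins, as set out below, and the comparison of the means is therefore given with and without replicate c for each of the 10 genes.

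Of the 10 genes, 9 were highest in cKO replicate c, where 16.4% of the 16573 genes had their highest value. Spp1 was the exception, and Sp7 was the 1 gene of the 10 under the mean of 10 that defines the 16573. In Lum alone every cKO library lay above every control library, a pattern that 3.89% of all genes showed. That call rested on 3 reads in cKO replicate b against 2 in control replicate a. None of the 10 had every cKO library below every control library, as 3.81% of all genes did. The cKO mean was above the control mean in 8 of the 10 and below it in 2, beside 50% above in all genes. The median log2 ratio of cKO to control (group means plus 1) over the 10 genes was 1.36, and 0.07 when cKO replicate c was left out. Since the genes were chosen with these means known, nothing is read from these counts against all genes.

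**Figure D1:**
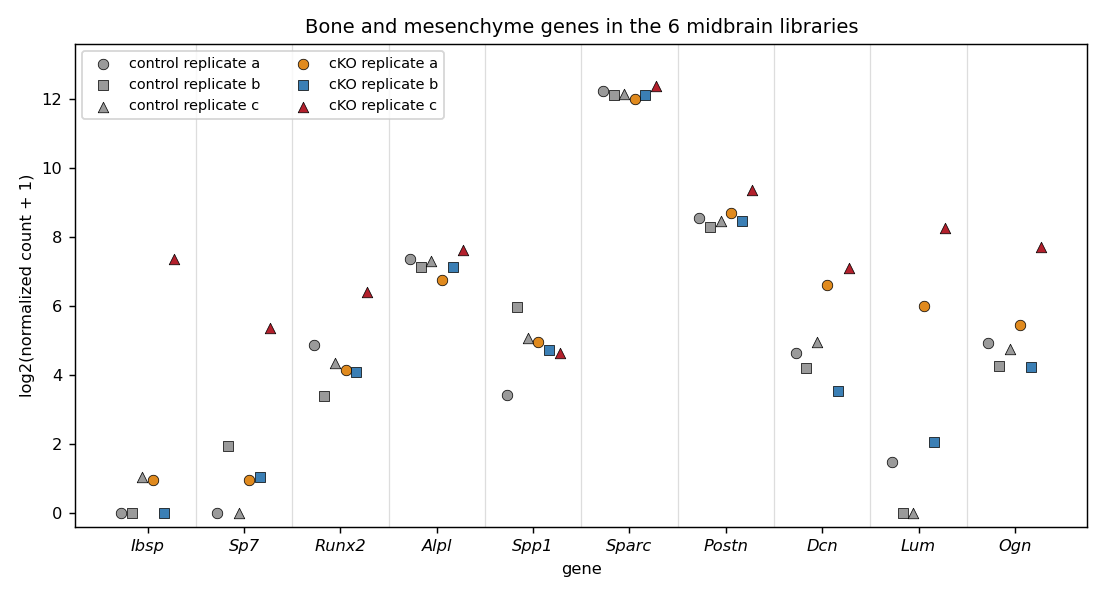
Normalized counts of the 10 bone and mesenchyme genes, as log2(normalized count + 1) on the y axis, with 1 point for each of the 3 control (grey) and 3 cKO (coloured) libraries. cKO replicate c (red triangles) is the highest point in every gene but Spp1, and cKO replicate a (orange circles) is second in Dcn, Lum, Ogn and Postn.

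Runx2 and Sp7, the transcription factors of the osteoblast, were high in 1 library. Runx2 (ENSMUSG00000039153, chromosome 17, 44495987 to 44814797, minus strand, GRCm38) had 16.9, 15.8 and 84.4 normalized counts in the cKO (replicates a, b and c) against 28.3, 9.61 and 19.4 in control replicates a, b and c. Only cKO replicate c lay outside the range of the controls, at 2.98 times the highest of the other libraries. The group means were 39.0 ± 39.3 in cKO and 19.1 ± 9.36 in control (SD, n = 3), and without cKO replicate c the log2 ratio turned from 0.99 to -0.21. A stretch of 519 exonic bases of Runx2 is shared with Runx2os1 on the opposite strand, and whether the counting used the strand is not given in the sources used here.

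Sp7 (ENSMUSG00000060284, chromosome 15, 102356606 to 102367182, minus strand) was nearly absent from 5 libraries. It had 1, 1 and 37 reads in the cKO (replicates a, b and c) against 0, 3 and 0 reads in control replicates a, b and c, or 40.0 normalized counts in cKO replicate c against at most 2.88 elsewhere. Replicate c held 94.9% of the Sp7 reads of the cKO group. The pooled ratio of cKO to control rested on 39 reads against 3 and was 13.7 (exact 95% interval 4.36 to 69.3, counting error only), while cKO replicates a and b alone gave a log2 ratio of 0.03.

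Ibsp and Spp1 code for bone sialoprotein and osteopontin, secreted acidic proteins of the same family that bind mineral and integrins, and the genes lie in the same cluster on chromosome 5, with Mepe between them. They behaved differently. Ibsp (ENSMUSG00000029306, 104299171 to 104311469, plus strand) had 1, 0 and 151 reads in the cKO (replicates a, b and c) against 0, 0 and 1 in the controls, so that cKO replicate c stood at 163 normalized counts and no other library above 1.08. The pooled ratio of replicate c to the other 5 libraries, 151 reads against 2, was 418 (exact 95% interval 114 to 3480, counting error only). For cKO against control it was 160 (28.3 to 6371), on 152 reads against 1, and 99.3% of these cKO reads came from replicate c. Without that library the log2 ratio fell from 5.36 to 0.11.

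Spp1 (ENSMUSG00000029304, 104435118 to 104441050, plus strand), which lies 124 kb from Ibsp, had 29.98, 25.4 and 23.8 normalized counts in the cKO (replicates a, b and c) against 9.73, 61.5 and 32.4 in control replicates a, b and c. It was highest and lowest in controls, and the cKO libraries lay within their range. The means were 26.4 ± 3.21 and 34.5 ± 25.9 (SD, n = 3). In cKO replicate c, the library with the Ibsp reads, Spp1 had the lowest of the 3 cKO values. Spp1 shares 309 exonic bases with Gm42793 on the same strand, and how reads there were counted is not given in the sources used here. Of the other family members, Dmp1, 85.1 kb from Ibsp on the other side, had between 3.24 and 20.2 normalized counts, with its highest value in a control. It is made by osteocytes and late osteoblasts.

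Sparc (ENSMUSG00000018593, chromosome 11, 55394500 to 55423183, minus strand), or osteonectin, binds collagen and calcium and is made by osteoblasts, vessels and glia alike. It had 4125, 4434 and 5302 normalized counts in the cKO (replicates a, b and c) against 4821, 4418 and 4557 in the controls. The spread among libraries was small, and the mean was 4620 ± 610 in cKO and 4599 ± 205 in control (SD, n = 3), a gap smaller than either SD. Alpl (ENSMUSG00000028766, chromosome 4, 137741733 to 137796384, minus strand) codes for the alkaline phosphatase that removes pyrophosphate, an inhibitor of mineral growth. Its values were 108, 141 and 195 in the cKO (replicates a, b and c) against 163, 138 and 159 in the controls. Replicate c was highest and replicate a lowest, at 0.662 times the highest control. The Alpl means were 148 ± 44.0 and 153 ± 13.1 (SD, n = 3), a gap smaller than either SD.

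The 4 genes of the fibroblast matrix, Postn, Dcn, Lum and Ogn, shared a second feature: cKO replicate a was above all controls too. Postn (ENSMUSG00000027750, chromosome 3, 54361109 to 54391037, plus strand) codes for periostin, a protein of periosteum, valves and tendon. It had 413, 351 and 660 normalized counts in the cKO (replicates a, b and c) against 376, 312 and 354 in the controls, so replicate a exceeded the highest control by a factor of 1.099 and replicate c by 1.76. The means were 475 ± 164 and 347 ± 32.4 (SD, n = 3). Ogn (ENSMUSG00000021390, chromosome 13, 49608046 to 49624501, plus strand), or osteoglycin, is a small leucine-rich proteoglycan. It had 43.1, 18.0 and 210 normalized counts in the cKO (replicates a, b and c) against 29.2, 18.3 and 25.9 in the controls. Replicate c was 4.87 times the highest of the other libraries, replicate a 1.48 times the highest control, and replicate b the lowest of all 6.

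Decorin (Dcn) and lumican (Lum), proteoglycans that regulate the width and spacing of collagen fibrils, lie 47.0 kb apart on chromosome 10. Dcn (ENSMUSG00000019929, 97479609 to 97518143, plus strand) had 97.4, 10.6 and 135 normalized counts in the cKO (replicates a, b and c) against 23.9, 17.3 and 30.2 in the controls. Replicates a and c were thus 3.22 and 4.47 times the highest control, and replicate b was below every control. Lum (ENSMUSG00000036446, 97565128 to 97572703, plus strand) had 67, 3 and 283 reads in cKO replicates a, b and c, or 62.8, 3.17 and 306 normalized counts, and 2, 0 and 0 reads in the controls. The pooled ratio of cKO to control was 186 (exact 95% interval 51.1 to 1540, counting error only), on 353 reads against 2. Leaving out cKO replicate c lowered the log2 ratio of Lum from 6.30 to 4.42 and that of Dcn from 1.73 to 1.15, and replicate a alone had 50.8 times (20.7 to 161) the Lum level of cKO replicate b and the controls together, on 67 reads against 5.

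**Figure D2:**
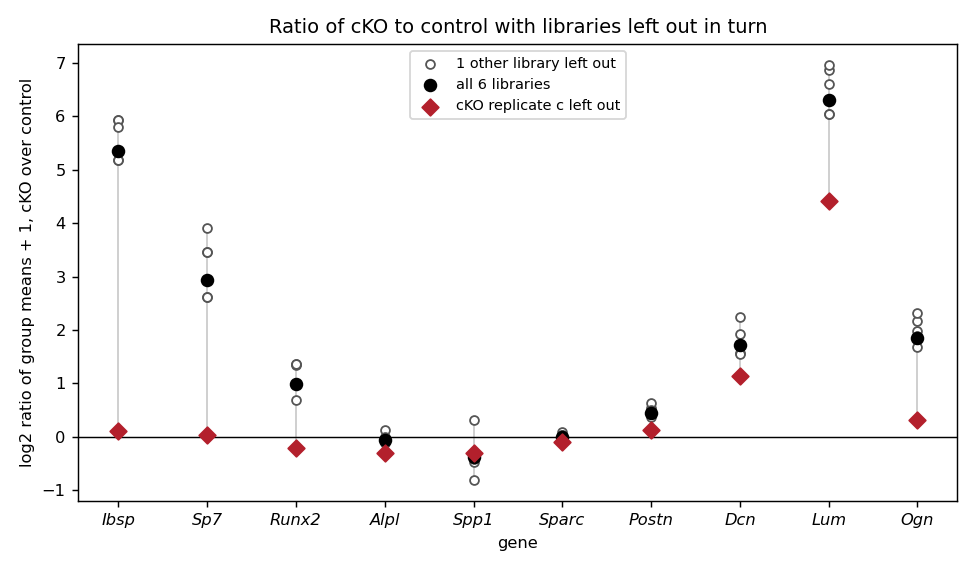
log2 ratio of the cKO mean to the control mean (each plus 1 normalized count, y axis) for each gene, with all 6 libraries (black), without cKO replicate c (red diamonds) and without each of the other libraries in turn (open circles). Without replicate c the ratio is 0.11 for Ibsp, 0.03 for Sp7 and -0.21 for Runx2, and 4.42 for Lum.

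Across the alternatives of leaving out a library, the log2 ratio kept its sign in Ibsp, Sp7, Postn, Dcn, Lum and Ogn. It changed sign for Runx2 without cKO replicate c and for Spp1 without control replicate b, where it went from -0.38 to 0.31, and that library held the highest Spp1 value. Alpl, at -0.05, ranged from -0.30 to 0.13, and Sparc, at 0.01, from -0.10 to 0.08. Without cKO replicate c the log2 ratios of Spp1, Alpl and Sparc were -0.31, -0.30 and -0.10. The log2 ratio of Ogn was 1.84 with all libraries and 0.31 without cKO replicate c, and that of Postn 0.45 and 0.14. Without cKO replicate b, the only cKO library in which Dcn and Ogn were not above the controls, Postn, Dcn, Lum and Ogn all had every remaining cKO library above every control. With 2 cKO libraries against 3 controls, 8.48% of all genes showed that pattern.

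Levels can be compared between genes only per length. Over control libraries, Sparc had the highest level, at 1214 ± 54.1 normalized counts per kb of exon (SD, n = 3). Postn at 39.9 ± 3.73 and Alpl at 38.01 ± 3.25 came next and did not differ beyond their spread, and Spp1 followed at 21.0 ± 15.7, a spread that nearly reached them. Ogn stood at 9.53 ± 2.19, Dcn at 4.08 ± 1.11 and Runx2 at 2.16 ± 1.06. Sp7, Lum and Ibsp were at 0.283, 0.241 and 0.174 per kb, at or under 3 reads in each control library, and could not be ordered. In cKO replicate c the order was another: Sparc stayed first at 1400, and Lum at 125, Ogn at 81.8, Ibsp at 79.0 and Postn at 75.9 per kb came before Alpl at 48.3. Dcn at 23.2, Spp1 at 14.4, Sp7 at 11.8 and Runx2 at 9.55 followed. Without Sparc, the other 9 genes summed to 1818 normalized counts in cKO replicate c, 773 in replicate a, 565 in replicate b and 560 to 632 in the controls. In bulk RNA more cells of a type and more RNA per cell cannot be told apart.

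The sequences before 4 of the starts are shown because the genes that follow them differed among the libraries in different ways: Ibsp and Ogn were at least 4.87 times as high in cKO replicate c as in any other library, Alpl and Spp1 were not. They are from RefSeq on GRCm38.p6, on the strand of the gene, up to 250 bases before the start and without annotated exons. Capitals mark the letters that were searched on both strands. The first motif was ACCACA, the core of the sequence bound by Runx factors. The second was the Sp1 box, written GGGCGG. The third was the element of the basal machinery, written TATAAA. The stretches are chr5:104299037-104299170 for Ibsp, chr13:49607765-49608014 for Ogn, chr5:104434861-104435110 for Spp1 and chr4:137796385-137796634 for Alpl.
Ibsp: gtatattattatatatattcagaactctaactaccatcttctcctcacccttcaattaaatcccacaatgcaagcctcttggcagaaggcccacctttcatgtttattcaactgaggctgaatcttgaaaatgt
Ogn: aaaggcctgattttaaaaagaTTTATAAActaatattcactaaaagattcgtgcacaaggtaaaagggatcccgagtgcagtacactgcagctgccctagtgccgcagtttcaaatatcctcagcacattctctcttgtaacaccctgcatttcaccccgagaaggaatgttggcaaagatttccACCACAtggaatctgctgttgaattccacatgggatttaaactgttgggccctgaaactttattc
Spp1: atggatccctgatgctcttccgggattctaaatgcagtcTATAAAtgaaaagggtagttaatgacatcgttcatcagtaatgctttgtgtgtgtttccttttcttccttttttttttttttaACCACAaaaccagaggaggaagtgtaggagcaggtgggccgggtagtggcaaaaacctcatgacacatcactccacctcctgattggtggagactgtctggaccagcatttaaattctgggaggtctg
Alpl: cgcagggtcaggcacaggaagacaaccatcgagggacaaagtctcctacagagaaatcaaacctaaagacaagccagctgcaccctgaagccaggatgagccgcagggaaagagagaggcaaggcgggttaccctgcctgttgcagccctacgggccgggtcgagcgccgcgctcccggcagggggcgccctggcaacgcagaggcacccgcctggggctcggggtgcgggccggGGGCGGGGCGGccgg
Promoters were given for 7 of the 10 genes, and not for Sp7, Dcn and Lum. ACCACA or its reverse complement was found in the 250 bases of 3 of the 7, namely Runx2 at 80, Spp1 at 128 and Ogn at 65 bases before the start, and in 14.2% of 27025 promoters of all genes. TATAAA or its reverse complement was found in Ibsp, Spp1 and Ogn, and in 13% of all promoters. In Ibsp it was the reverse complement, 28 bases before the RefSeq start, in a part that GENCODE counts as exon and that is not printed. In Spp1 it lay 211 bases before the start. In Ogn it lay 227 bases before the start and overlaps its own reverse complement at 229. GGGCGG was found in Alpl only, as 2 overlapping copies, and in 33% of all promoters. Spp1 and Ogn, both with ACCACA and TATAAA, had their highest values in different libraries. A link between these letters and the values of the libraries was not tested.

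The neighbours of the genes on the chromosome were read in the same libraries. Aspn, the asporin gene 40.5 kb from Ogn and a relative of it, had 116 normalized counts in cKO replicate c and at most 11.2 elsewhere, while Nol8, 28.6 kb from Ogn on the other side and no matrix gene, had 1206 to 1385 in all libraries, also with its highest value in cKO replicate c. Beside Lum, Kera (keratocan) had 1 read in a single library, cKO replicate c, and Epyc (epiphycan, a cartilage proteoglycan) had 24.9 normalized counts there and at most 3.84 elsewhere. Thus near both Ogn and Lum a further proteoglycan gene was highest in cKO replicate c, beside 16.4% of the 16573 genes. Omd, which lies between Aspn and Ogn, had no recovered reads. Ecm2, another gene of the small leucine-rich proteoglycan list, was highest in control replicate b, at 142 against 134 in cKO replicate c. Aaas and Sp1, which flank Sp7, had 446 to 583 and 1914 to 2132 normalized counts, and neither was highest in cKO replicate c. On either side of Runx2, Clic5 (216 kb away) and Spats1 (626 kb away) were highest in cKO replicate c, at 62.8 and 31.4 against at most 55.1 and 25.7 elsewhere. Cdc5l, the nearest gene on the Spats1 side at 577 kb, had 1158 in cKO replicate c and its highest value, 1304, in control replicate c. Enpp4, 390 kb away on the Clic5 side, had 378 in cKO replicate c and its highest value, 454, in control replicate b.

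Genes of related function and of other tissues, such as blood, epithelium and midbrain neurons, were read from 15 lists. Of these, 126 different genes had recovered reads and a mean of at least 10. Of the 126 genes, 48 (38.1%) were highest in cKO replicate c, beside 16.4% of all genes. At least 4 times as high there as in any other library were 7, namely Aspn, Fmod, Lox, Thbs2, Tnn, Matn4 and Cnmd. Some of them reached the mean of 10 through cKO replicate c itself, such as Aspn, Fmod and Tnn with control means of 3.76, 4.17 and 1.04, so nothing is read from these counts. With the mean taken over the other 5 libraries, 38 of 115 list genes (33%) were highest in cKO replicate c, beside 15.9% of all genes. Among all 14572 genes with at least 30 normalized counts in cKO replicate c, 0.158% were that high, or 23 genes, of which 4 are Ibsp, Sp7, Lum and Ogn and 3 are collagens. The same measure gave 4 genes for cKO replicate a and 3 for replicate b, while the control replicates had 9, 0 and 2 in that order, with none of the 10 genes among them.

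In limma's test on the recovered reads, 197 genes were higher in cKO at an unadjusted p under 0.05 (1.19% of 16573) and 269 lower (1.62%), and 0% had a Benjamini-Hochberg adjusted p under 0.05, with voom weights or with limma-trend. Of the 126 list genes, 5 were higher and 7 lower at an unadjusted p under 0.05, and the adjusted p of each was 0.9998. Of the 7 list genes that were at least 4 times as high in cKO replicate c as elsewhere, Lox was past that threshold and the other 6 were not.

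Most of the remaining osteoblast genes of the list did not follow Ibsp and Sp7. Of 16 with recovered reads, 10 had a mean of at least 10, 3 of these were highest in cKO replicate c, and the median log2 ratio was 0.07 and -0.04 without cKO replicate c, beside 0.00 over all genes. Bglap (osteocalcin), the marker of the mature osteoblast, had 0.885 to 6.48 normalized counts and was highest in a control, and Bglap2 had at most 1 read in any library. Dlx5, a homeobox gene of the osteoblast that forebrain neurons also express, had 247, 286 and 246 normalized counts in the cKO (replicates a, b and c) against 126, 254 and 125 in the controls. This was the only one of the list past an unadjusted p under 0.05 (limma log2 ratio 0.70 ± 0.23 SE, adjusted p = 0.9998), and it was not past it without control replicate a or c. Without cKO replicate c its log2 ratio was 0.74. Smpd3, a sphingomyelinase gene of that list, had 4722 to 5744 normalized counts. Outside the list, and named after their values were seen, Panx3 and Ptprv were high in the same library as Ibsp and Sp7. Panx3, a pannexin channel of osteoblasts and chondrocytes, had 66 reads in cKO replicate c and 0 in each of the others. Ptprv, an osteoblast phosphatase, had 28 reads there and between 1 and 5 elsewhere.

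In the small leucine-rich proteoglycans other than Dcn, Lum and Ogn, 3 of 7 genes with a mean of at least 10 were highest in cKO replicate c and 4 in a control, and the median log2 ratio was -0.02, or -0.12 without cKO replicate c. With the mean taken over the other 5 libraries, which leaves out Aspn and Fmod, 1 of 5 was highest in cKO replicate c. Aspn and fibromodulin (Fmod) were the 2 at least 4 times as high there as elsewhere. Fmod had 89.8 normalized counts in cKO replicate c and at most 5.31 in the other libraries. Biglycan (Bgn) had 883, 672 and 1153 in cKO replicates a, b and c and 788 to 803 in the controls, so that replicates c and a again came first and second. Prelp was lower in cKO at an unadjusted p under 0.05 in limma's test (log2 ratio -0.37 ± 0.17 SE, adjusted p = 0.9998), and stayed so only when cKO replicate c (log2 ratio -0.48) or control replicate b was left out. Of the relatives of Sparc and Postn, Sparcl1 (log2 ratio -0.23 ± 0.07 SE) and Smoc1 (-0.28 ± 0.08 SE) were lower in cKO at an unadjusted p under 0.05 in limma's test, also with each library left out in turn, and at an adjusted p of 0.9998. Without cKO replicate c these ratios were -0.27 and -0.32. The other members of that list did not reach p under 0.05.

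Of 27 further fibroblast and mesenchyme genes with a mean of at least 10, 19 were highest in cKO replicate c and 4 in cKO replicate a. Some, such as Tnn, reached that mean only through the library in which they were high. With the mean taken over the libraries other than cKO replicate c, 17 of 25 were highest in it, beside 15.9% of all genes. With the mean taken over the libraries other than cKO replicate a, 3 of 26 were highest in that library. Lox (lysyl oxidase, which cross-links collagen) had 47.8, 39.1 and 274 normalized counts in the cKO (replicates a, b and c) against 27.4, 18.3 and 15.1 in the controls. All cKO libraries lay above all controls, and the log2 ratio in limma's test was 1.94 ± 0.80 SE (unadjusted p under 0.05, adjusted p = 0.9998). Without cKO replicate c it was 1.11, still at an unadjusted p under 0.05, a threshold it missed when any of the control libraries was left out. Thbs2, a thrombospondin, had 408 normalized counts in cKO replicate c and at most 75.9 elsewhere. Tnn, a tenascin of bone and periosteum, had 111 there and at most 2.16 elsewhere. Prrx1, a transcription factor of craniofacial and limb mesenchyme, had 368 there and at most 113 elsewhere. Serpinh1, the collagen chaperone, had 3577 in cKO replicate c and 2424 to 3150 in the others. The median log2 ratio of the list was 0.28, and -0.02 without cKO replicate c.

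Of 7 cartilage genes with a mean of at least 10, 5 were highest in cKO replicate c, and Matn4, a matrilin, with 118 against at most 14.2 elsewhere, and Cnmd (chondromodulin), with 84.4 against at most 19.5, were at least 4 times as high. The median log2 ratio of these 7 was 0.85, and -0.12 without cKO replicate c. Acan, Matn4 and Cnmd reached the mean of 10 only through that library, and of the 4 that reached it in the other 5 libraries, 2 were highest there and the median log2 ratio was -0.03. Sox9, which neural progenitors also express, had 1156 to 1552 and was not highest there. Of 7 genes of the meninges with that mean, 2 were highest in cKO replicate c, and the median log2 ratio was 0.20, or 0.14 without that library. Igf2, a growth factor of embryonic mesenchyme and meninges, had 2099, 1909 and 3756 normalized counts in the cKO (replicates a, b and c) against 1557, 1886 and 1729 in the controls, with a limma log2 ratio of 0.52 ± 0.20 SE (unadjusted p under 0.05, adjusted p = 0.9998). Without cKO replicate c the ratio was 0.22, and the unadjusted p stayed under 0.05 there but not without control replicate a or c.

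**Figure D3:**
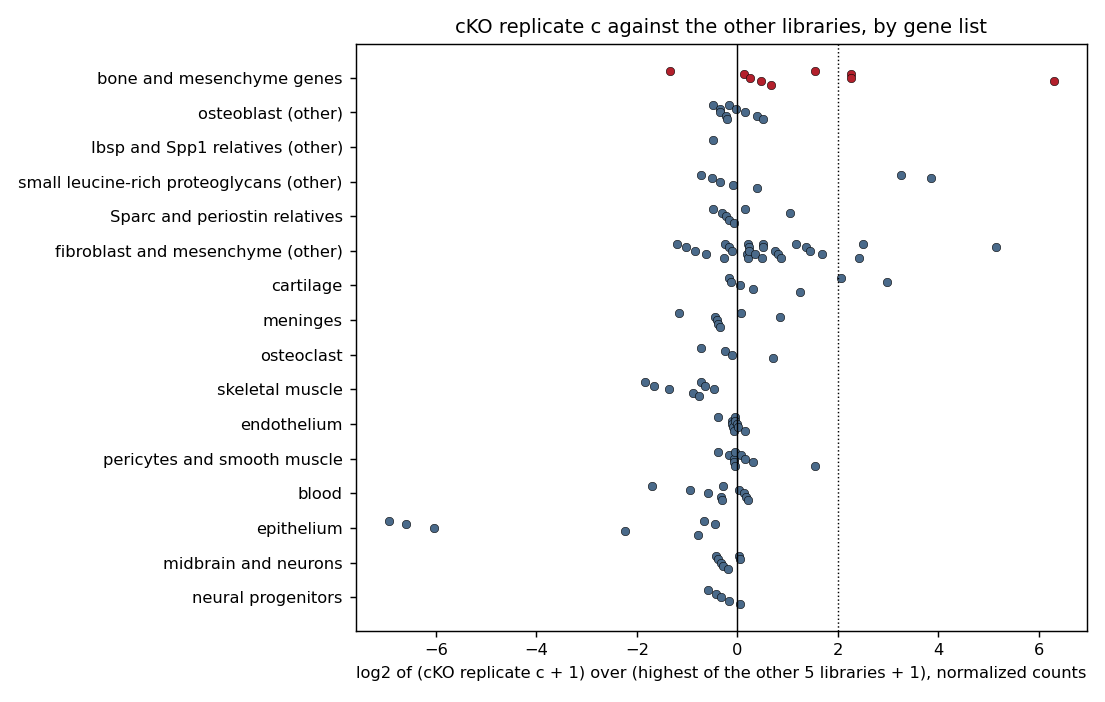
Each point is a gene with a mean of at least 10 normalized counts, placed on the x axis by the log2 of its level in cKO replicate c over the highest of the other 5 libraries (each plus 1); rows are gene lists and the dotted line marks 4 times. Genes to the right of it are in the fibroblast matrix, proteoglycan and cartilage lists and among the 10 genes (red), and keratins, at the far left, are high in cKO replicate a.

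Genes of muscle, vessels, osteoclasts and blood showed smaller differences in cKO replicate c. Skeletal muscle genes summed to 187 normalized counts in cKO replicate c and 145 to 271 in the controls, 0 of 8 with a mean of at least 10 were highest there, and Myod1, Myog, Tnnc2, Tnni1 and Ckm had 3 reads or fewer in every library. Endothelial genes summed to 7023 in cKO replicate c and 6476 to 7151 in the controls, and genes of pericytes and smooth muscle to 9231 and 8869 to 9289. Within that last list Acta2 had 35.7 normalized counts in cKO replicate c and at most 11.5 elsewhere. Osteoclast genes summed to 2069 and 2025 to 2214, with Ctsk at 76.8 in cKO replicate c and at most 46.9 elsewhere. Blood genes summed to 18170, 17716 and 13929 in cKO replicates c, b and a and 12622 to 17196 in the controls. Hba-a1 and Hbb-bs, hemoglobin genes with near-identical copies, were higher in cKO at an unadjusted p under 0.05 with limma log2 ratios of 0.26 and 0.30, but not without cKO replicate c (0.16 and 0.20) or control replicate a. Hba-a1 also missed that threshold without cKO replicate b, and Hbb-bs without control replicate b.

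Epithelial genes were high in another library. Krt5, a keratin of the basal layer of stratified epithelium, had 254 normalized counts in cKO replicate a and at most 1.08 elsewhere. Its partner Krt14 had 95.6 there and no read in any other library, and Krt15 had 64.6 and at most 3.24 elsewhere. Of 10 epithelial genes, 8 were highest in cKO replicate a, Krt18 in a control and Trp63 in cKO replicate c. Krt5, Krt14, Krt15 and Krt19 reached a mean of 10 only through cKO replicate a, and the 3 that reached it in the other 5 libraries (Epcam, Sfn and Perp) were also highest there. This is the library in which Lum, Dcn, Ogn and Postn were above all controls and Ibsp and Sp7 were not, while the sum of the epithelial list was 192 in cKO replicate c and 171 to 193 in the controls. Perp had 105 in cKO replicate a and 62.8 to 87.4 elsewhere. Among the 16573 genes that passed this mean, 18.4% were highest in cKO replicate a. The part of epithelial tissue in the values of Lum, Dcn, Ogn and Postn was not tested.

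**Figure D4:**
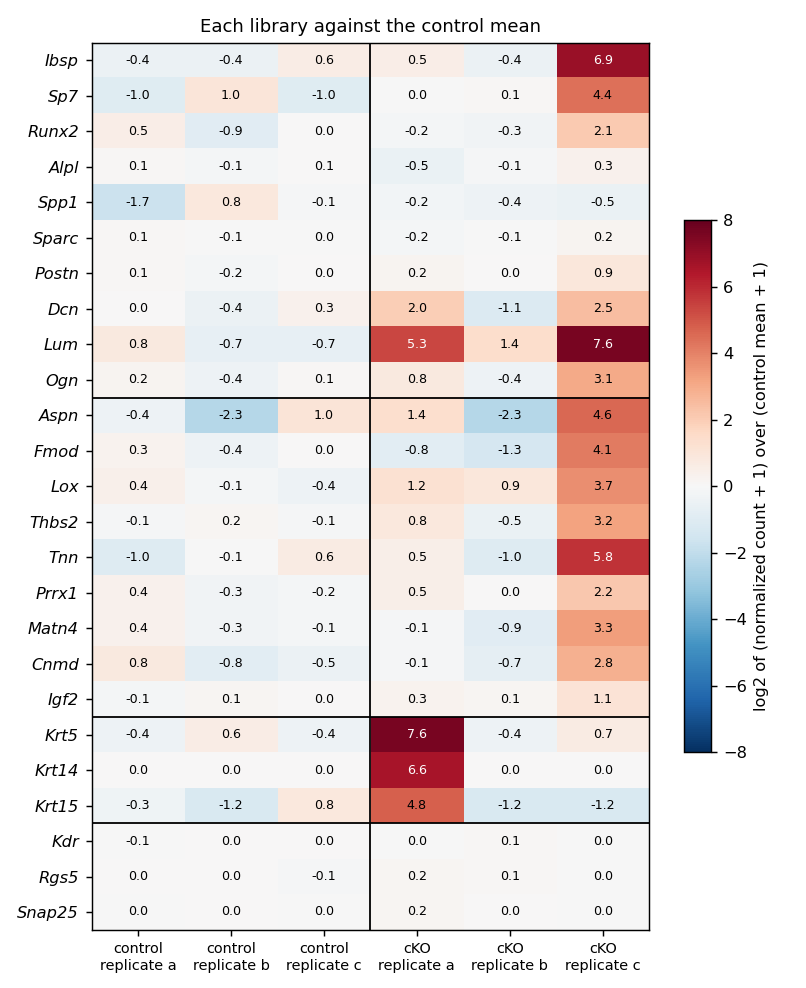
log2 of each library's normalized count plus 1 over the control mean plus 1, for the 10 genes (top), genes of the related lists, keratins and 1 gene each of the endothelial, pericyte and neuron lists (bottom), with libraries in columns. cKO replicate c is the highest library for 9 of the 10 genes, Spp1 being the exception, and is high in some genes of the related lists such as Aspn, Fmod, Tnn and Matn4, cKO replicate a is high in Lum, Dcn and the keratins, and Kdr, Rgs5 and Snap25 stay near 0 in every column.

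Of 12 genes of midbrain and neurons, 7 had reads that could be recovered, and the other 5 had too many. These 7 summed to 9951 in cKO replicate c, 9574 and 9720 in the other cKO libraries and 9982 to 10450 in the controls, so that each cKO sum lay below each control sum. Snap25 had 4129 to 4689 normalized counts. The 5 of 6 neural progenitor genes with recovered reads, Nes (nestin) among them, summed to 15136, 17524 and 17108 in cKO replicates a, b and c and 16850 to 17798 in the controls, and cKO replicate a, the library with the keratins, lay below every control. En1, a homeobox gene of the midbrain, was lower in cKO with a log2 ratio of -0.40 ± 0.09 SE in limma's test (unadjusted p under 0.05 with any library left out, adjusted p = 0.9998). Pitx3 (-0.41), Hes5 (-0.33) and Slc1a3 (-0.21) were also lower at an unadjusted p under 0.05, which each kept in 2 to 4 of the 6 fits that left out a library. Without cKO replicate c the ratios of En1, Pitx3, Hes5 and Slc1a3 were -0.46, -0.47, -0.26 and -0.28, and Hes5 was then not past that threshold.

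The 10 genes outside the lists and collagens with the largest ratio of cKO replicate c to the highest other library, among genes with at least 100 normalized counts there, were Aqp1, Aebp1, Lgals1, Svep1, Ccn3, Gxylt2, H19, Ppp1r3b, Colec12 and Crispld1, with ratios from 6.04 to 1.84. Aqp1, a water channel, had 121 normalized counts in cKO replicate c and at most 20.1 elsewhere. Aebp1, a matrix protein that binds collagen, had 175 there and 40.3 in cKO replicate a, the second highest, against at most 23.1 in the other libraries. Lgals1 (galectin-1) had 318 in cKO replicate c, 79.6 in replicate a and 57.1 in replicate b, all above the highest control at 53.1. H19, the imprinted RNA next to Igf2, had 3759 in cKO replicate c and 1503 to 1808 elsewhere.

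H19 was also the gene whose log2 values followed Ibsp most closely over the 6 libraries (Pearson r = 0.995), with Gm13093 next. The other 5 libraries hold 2 reads of Ibsp in all. Lum was followed most closely by Sdr42e1 (r = 0.992, and 0.981 without cKO replicate c, where cKO replicate a alone had more than 3 reads of Lum), Ano3 and the collagen gene Col6a2. The closest to Sparc were Bcl2l13 (r = 0.997), Gm16758 and Ercc6, with Bcl2l13 between 1995 and 2245 normalized counts. These are descriptions over 6 libraries and, for Ibsp, rest on a single high library. Among the 10 genes, Postn and Ogn followed each other most closely (r = 0.988), Ibsp and Ogn had r = 0.963, Sparc and Alpl 0.956, and Spp1 had a negative r with each of the others except Sp7 (0.184).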

How the data were processed

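Midbrains of 3 Lmx1b cKO and 3 control pools were sequenced as paired-end libraries of total RNA. Per the submitters' processing notes, TopHat 1.0.14, Bowtie2 2.1.0, HTSeq 0.6.1p1, DESeq 1.10.1 and GRCm38.p4 were used; the strand setting is not given in the sources used here. The authors deposited 1 table whose signal columns are the mean over all libraries and over each genotype of read counts divided by a size factor per library. Its columns of ratios, log2 ratios, p-values, adjusted p-values and ranks hold the authors' own comparison and were not used. Lines that name no gene, 3 in number, hold 31.8% of the mean counts and were left out.

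Whole reads per library were recovered by searching for the integers behind each printed mean, up to 30000 reads per group. One answer was found for 26248 genes (97.8%), with 66.4% of the normalized counts on genes, and 604 genes were over the limit. Decoy values gave an answer in 2 of 1000 cases, and each of 1000 simulated means was solved correctly. Size factors recomputed from the reads differed by at most 0.152% once both sets were scaled to a geometric mean of 1. The test on reads was limma 3.58.1, run in R 4.3.3 (voom, mean of at least 10, genotype as the term), a test checked on simulated counts. Symbols were matched for 26693 of 26852 genes and exons taken from GENCODE on GRCm38.

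The 10 genes and all lists were chosen with earlier results of these data known, so the 10 genes have no test. Named beside them are list genes with an unadjusted p under 0.05, list genes at least 4 times as high in 1 library with at least 30 normalized counts, the most abundant gene of a list, the 10 strongest others in cKO replicate c with at least 100, the 3 closest by Pearson's r (1 of those for Ibsp is not reported here), neighbours on the chromosome and Lmx1b. Other list genes, and the rows of the heat map, were named after their values were seen. Alternatives were total reads, recomputed size factors, minimum means of 1 and 100, limma-trend, pseudocounts of 10 and 0.1, the mean for the median and each library left out. Intervals are exact binomial intervals and cover counting error only. Python 3.11.15, numpy 2.4.6, pandas 2.3.3, numba 0.67.0 and matplotlib 3.10.9 were used.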

Additional observations from a re-analysis of the deposited data

How the results depend on the processing

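Of the 10 bone and mesenchyme genes, 9 were highest in cKO replicate c with size factors or total reads and without any other library. The number with groups that did not overlap was 1 with size factors or total reads and between 1 and 4 with a library left out, where 14.3% to 19.4% of all genes did not overlap. The median log2 ratio of 1.36 was 1.35 with total reads, 0.94 and 1.40 with pseudocounts of 10 and 0.1, 1.92 as a mean, and between 0.07 and 1.80 with a library left out, the lowest without cKO replicate c. The count of genes with an unadjusted p under 0.05 in limma's test, 466, was 302 of 12341 with a minimum mean of 100, 695 of 21672 with a minimum mean of 1, and between 332 and 636 with a library left out; the number with an adjusted p under 0.05 was 0, and between 0 and 4 with a library left out, with 4 without control replicate a. In alternatives that were added after seeing the data, which include the mean over 5 libraries for the gene lists, 4 of 10 were at least 4 times as high in cKO replicate c as elsewhere, also with total reads, and 5 at least 2 times. No paired analysis was possible because the recovered libraries could not be tied to the library numbers that the deposited column names give to both genotypes. Depth limits Sp7, Ibsp and Lum, which had 3 reads or fewer in every control library, and which embryos, litter or dissection gave a recovered library is not known.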
